A study of Mus musculus with 8 samples.

Results

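The genes described here bind retinoic acid, make it, break it down or encode its receptors. The list holds 9 genes, namely Crabp1, Crabp2, Rara, Rarb, Rarg, Aldh1a1, Aldh1a2, Aldh1a3 and Cyp26b1, and every probe set annotated to exactly 1 of them was taken. This gave 11 probe sets for 8 of the genes, out of 28898 probe sets for 17097 genes in all. No probe set was named for Rarb in the annotation used here, and that gene was not analysed. The list was chosen by function with a result of these arrays known: it was selected on Crabp1, which was higher after GW9662 in all 4 pairs of mice. The values of Crabp1 are therefore given as a description, with no test.

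Microarrays recorded the transcripts of dermal fibroblasts of 8 mice, with 1 array per mouse. The GW9662 group held 4 mice whose back skin received 150 nmol of GW9662, a compound that blocks the nuclear receptor PPARG irreversibly, in 300 µl of acetone. The vehicle group held 4 mice that received 300 µl of acetone alone. Both groups were 12 months old at the start and were treated 3 times a week for 6 months; strain, sex and any transgene are not given in the labels. Subdermal tissue was removed, and 5000 cells per mouse were sorted that carried Pdgfra and CD34 and lacked CD45, CD117, CD24, CD31 and EpCam, so the values describe that gate and not the whole dermis. All values are log2 signals per probe set as deposited.

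Retinoic acid is made from vitamin A. Retinol is oxidised to retinal, retinal is oxidised to retinoic acid by the enzymes of the Aldh1a family, and enzymes of the Cyp26 family break the acid down. The cellular retinoic acid binding proteins Crabp1 and Crabp2 carry it inside the cell, and the receptors Rara, Rarb and Rarg bind DNA with a retinoid X receptor, which is also the partner of PPARG. In skin the pathway is known for its role in hair follicle and epidermal differentiation, and Crabp1 is known in mice as a marker of upper dermal and follicle-associated fibroblasts.

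The start region of Crabp1 is shown because the list was built around this gene, and a response element of Rarb because it is the textbook target of the receptors. Both sequences come from RefSeq on build GRCm38.p6, where 7 of the 9 genes have 12 windows of 250 bases before to 50 bases after a gene start. The Crabp1 window is chr9:54764498-54764797 on the plus strand, with GC boxes in capitals. The Rarb stretch is chr14:16575501-16575541 on the minus strand, with the half-sites of a direct repeat in capitals.
Crabp1: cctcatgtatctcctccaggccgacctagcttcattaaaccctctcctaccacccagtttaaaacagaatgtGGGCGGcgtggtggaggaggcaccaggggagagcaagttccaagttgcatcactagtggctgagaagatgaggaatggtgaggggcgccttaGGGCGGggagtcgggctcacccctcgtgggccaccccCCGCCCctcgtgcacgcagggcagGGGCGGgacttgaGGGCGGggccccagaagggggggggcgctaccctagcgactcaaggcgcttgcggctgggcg
Rarb: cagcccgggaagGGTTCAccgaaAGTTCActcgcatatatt

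The GC box searched was GGGCGG on both strands, and the Crabp1 window held 5 of them; 35.7% of all 32851 windows held at least 1, and 2.71% held 5 or more. The receptor half-site was searched on both strands as AGGTCA, in a second form as AGTTCA, in another form as GGTTCA and in a last form as GGGTCA, forms that cannot match at the same position. Direct repeats of these with a spacing of 1, 2 or 5 bases were found in 1 of the 12 windows, that of Rarb, where the spacing was 5 and the first half-site began 53 bases before the gene start. Such a repeat was present in 0.222%, 0.268% and 0.0974% of all windows for spacings of 1, 2 and 5. The Crabp1 window held none of the 4 half-sites in any arrangement, which says only that these letters are not in that window.

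The sorted cells carried the transcripts of fibroblasts. Over 7 fibroblast markers (Pdgfra, Cd34, Col1a1, Col1a2, Col3a1, Dcn and Lum) the mean level per mouse lay between 10.20 and 10.37 after GW9662 and between 10.05 and 10.36 in vehicle, against a median of 5.27 over all genes. Cd34 measured 10.66 to 10.75 after GW9662 and 10.49 to 10.81 in vehicle, whereas the Pdgfra probe set was dim, at 4.8 to 5.13 and 4.63 to 5.08. Of the genes of markers sorted against, Ptprc (CD45) measured 2.84 to 3.01 after GW9662 and 2.81 to 2.97 in vehicle, Epcam 3.88 to 4.07 and 3.73 to 3.91, and Pecam1 (CD31) 4.79 to 5.27 and 4.63 to 5.1. Below the median of all genes lay 6 of 7 leukocyte, 5 of 7 keratinocyte and 3 of 5 endothelial markers. The brighter ones included Cd68 of macrophages, at 7.92 to 8.41 after GW9662 and 8.07 to 8.54 in vehicle, Krt10 of keratinocytes, at 6.76 to 7.01 and 6.66 to 7.15, and the endothelial genes Kdr, at 7.26 to 8.12 and 6.72 to 8.58, and Tek, at 5.53 to 6.14 and 5.79 to 6.71. The mean of the endothelial list was 5.04 to 5.38 after GW9662 and 4.98 to 5.57 in vehicle, highest in vehicle 3 and 4; its part in the results was not tested. One array stood apart: on the first principal component, which held 28.2% of the variance, vehicle 4 lay at 22.2 and the other 7 between -10.4 and 5.49. For the brightest probe set of each named gene of the list or pathway, a log2 fold change that moved by over 1.5 times without it is given with and without it. List medians, further probe sets and the genes most similar in profile to Crabp1 are given for all 8 mice only.

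Of the 8 measured genes, 4 were higher and 4 lower by any amount after GW9662, and the median log2 fold change was 0.01, against -0.005 over all 17097 genes. By limma with Benjamini-Hochberg adjustment over all genes, 0 genes of the whole table had an adjusted p under 0.05 (0.0% called), and 578 (3.38%) had an unadjusted p under 0.05. Of the 7 genes other than Crabp1, 0 passed at either level in this fit, which leaves the pairing of the mice out. The SE, intervals and p-values of single genes below also leave it out unless stated. With same-numbered mice as a block, 0 genes of the whole table passed adjustment. Fitted on every probe set, 0 of 28898 passed adjustment (0.0%) and 1024 (3.54%) had an unadjusted p under 0.05, among them 0 of the 10 probe sets of the list other than that of Crabp1. The groups overlapped in all 11 probe sets of the list, while they did not overlap in 1.75% of all genes.

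**Figure D1:**
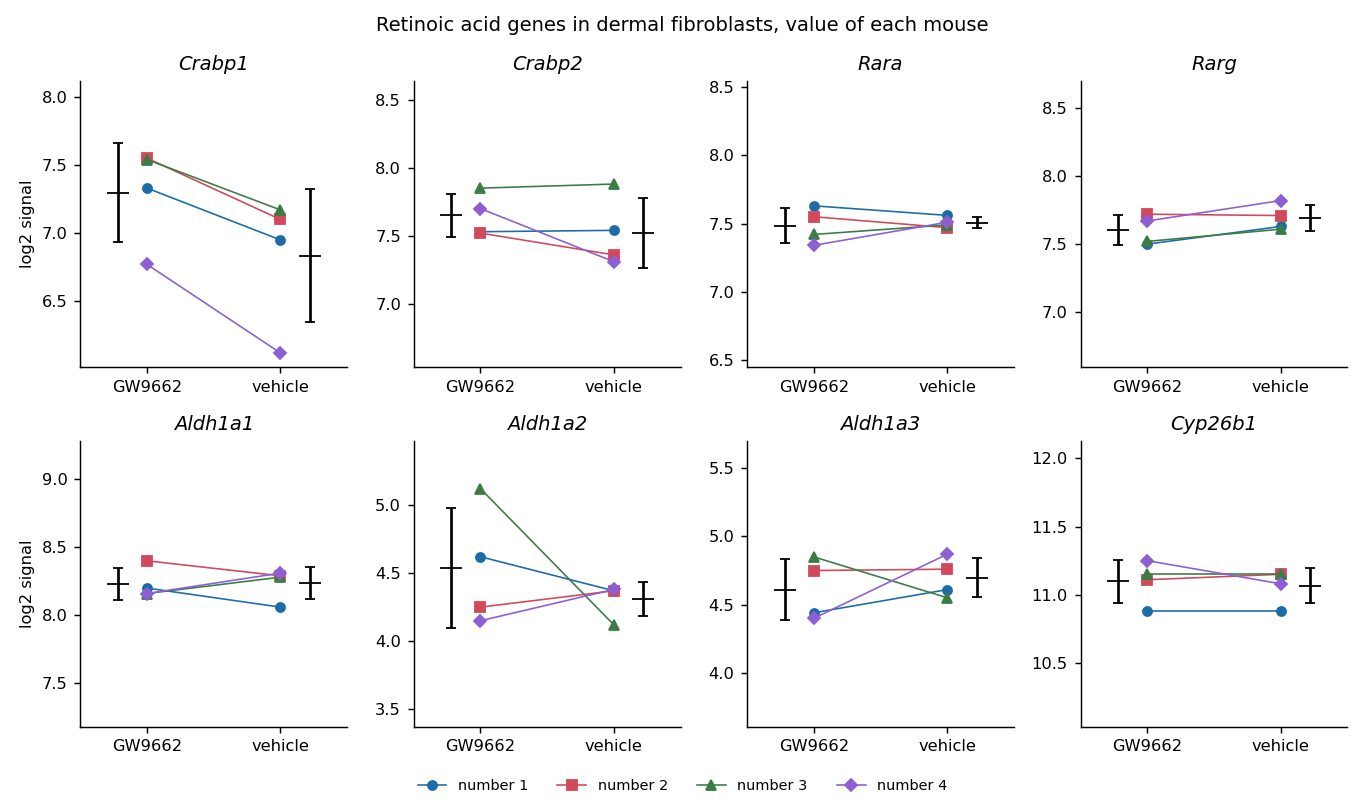
Log2 signal (vertical axes, each spanning the same width) of the brightest probe set of 8 genes in 4 GW9662 mice (left) and 4 vehicle mice (right). Lines join mice of the same number, and black bars give the mean ± SD. All 4 lines slope down to vehicle for Crabp1, with both mice of number 4 lowest, while Aldh1a2 has a single high GW9662 mouse at 5.12.

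Crabp1, which binds retinoic acid in the cytoplasm, had the largest difference of the list. It measured 7.33, 7.55, 7.54 and 6.77 in GW9662 mice 1 to 4, against 6.95, 7.10, 7.17 and 6.12 in vehicle mice 1 to 4. The groups overlapped, because GW9662 4 lay below 3 of the vehicle mice, and the mouse numbered 4 was the lowest of its group in both. The means were 7.30 ± 0.37 after GW9662 and 6.84 ± 0.49 in vehicle (SD, n = 4 each).

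Within same-numbered mice the Crabp1 differences were 0.38, 0.45, 0.37 and 0.65, with a mean of 0.46 ± 0.13 (SD, n = 4 pairs). These differences spread less than the mice of either group did. The choice of Crabp1 as higher in every pair favours such a small spread, and no share over all genes is given for it. A value higher in all 4 pairs was found in 5.46% of all genes, and a log2 fold change as high as that of Crabp1 or higher in 29 genes, or 0.17%; these shares describe the gene that the list was built around. Without vehicle 4 the log2 fold change was 0.22, without GW9662 4 it was 0.64, and without both mice numbered 4 it was 0.40. In sorted bulk cells, fewer cells of a type and less RNA per cell cannot be told apart.

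Marker levels of fibroblast subtypes were set beside Crabp1. Over 8 papillary markers (Dpp4, Ntn1, Lef1, Apcdd1, Axin2, Col23a1, Lrig1 and Wif1), 3 were higher and 5 lower after GW9662, and the mean level per mouse was 7.24 to 7.33 after GW9662 and 7.27 to 7.43 in vehicle. Ntn1 and Axin2 were lower in 4 of 4 pairs, against 5.93% of all genes, while Lef1 and Col23a1 were higher in 3 pairs. Of the 8, 2 lay below the median of all genes, Lef1 and Wif1. Over 9 measured markers of dermal papilla and sheath, 5 were higher and 4 lower, with mean levels of 4.60 to 4.76 after GW9662 and 4.62 to 4.69 in vehicle. Of these 9, 7 lay below the median of all genes, among them Sox2, at 2.72 to 2.80 after GW9662 and 2.64 to 2.82 in vehicle. The brighter ones were Bmp4, at 8.60 to 8.92 after GW9662 and 8.53 to 9.27 in vehicle, and Vcan, at 6.73 to 7.61 and 6.84 to 7.49. The mean level of the fibroblast markers was lowest of its group in GW9662 4, at 10.20, and in vehicle 4, at 10.05, as for Crabp1. Single markers did not all share this. In GW9662 4, Col1a1, Col1a2 and Col3a1 were the lowest of the group, at 12.32, 7.45 and 11.98. Pdgfra and Cd34 were the highest of the group there, at 5.13 and 10.75, and Dcn and Lum were not the lowest. In vehicle 4, Pdgfra, Cd34, Col1a1, Col3a1 and Lum were the lowest of the group, and Col1a2 and Dcn were not. The part of these levels in the Crabp1 difference was not tested.

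**Figure D2:**
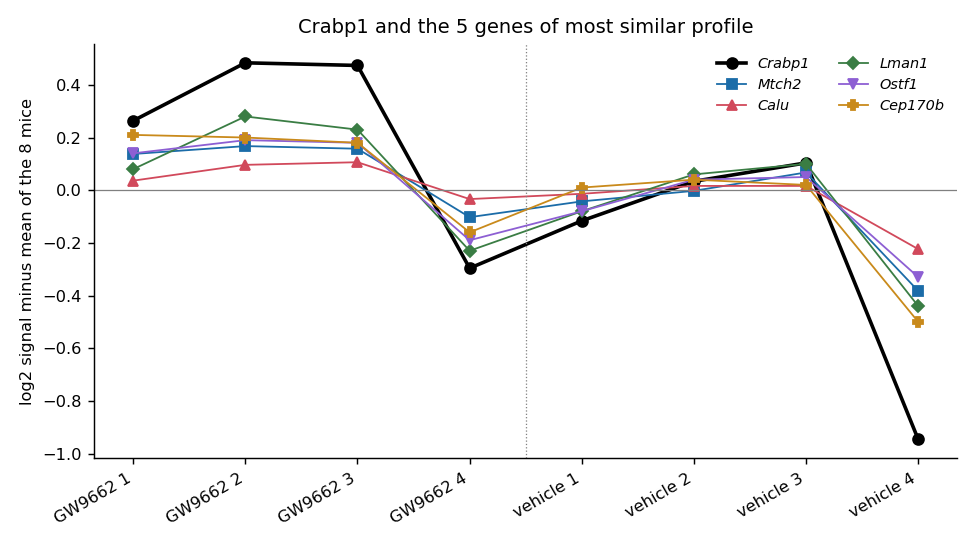
Log2 signal minus the mean of all 8 mice (vertical axis) for Crabp1 and for the 5 genes with the highest correlation to it, in GW9662 mice 1 to 4 and vehicle mice 1 to 4 (horizontal axis). All 6 profiles lie below their mean in GW9662 4 and are lowest in vehicle 4, and Crabp1 spans the widest range, 1.43.

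The genes whose profile over the 8 mice was most like that of Crabp1 were ranked among 8143 brighter genes. Mtch2, a protein of the outer mitochondrial membrane, had a Pearson correlation of 0.99 with it, and Calu, a calcium-binding protein of the secretory pathway, 0.99. Lman1, a cargo receptor between endoplasmic reticulum and Golgi, followed at 0.98, with Ostf1 at 0.98 and Cep170b at 0.98. In all, 158 of the ranked genes had a correlation over 0.9. With 8 mice and so many genes such values describe the shape of these profiles only, which all share the low value of vehicle 4. All 5 genes were higher in each of the 4 pairs, by means between 0.10 and 0.22, against 5.46% of all genes; this follows from their choice by likeness to Crabp1.

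Crabp2, the binding protein that hands retinoic acid to nuclear receptors, measured 7.53, 7.52, 7.85 and 7.70 in GW9662 mice and 7.54, 7.36, 7.88 and 7.31 in vehicle mice, in number order. The mice numbered 3 were the highest of both groups, and the groups overlapped. The pair differences were -0.01, 0.16, -0.03 and 0.39, above 0 for numbers 2 and 4 and just below it for the others. The log2 fold change was 0.13 ± 0.13 (SE), with a 95% interval from -0.15 to 0.41 and an adjusted p of 0.997 in limma. It was 0.06 without vehicle 4, 0.25 without vehicle 3 and 0.04 without both mice numbered 4. Whether the differences of Crabp1 and Crabp2 differ from each other was not tested.

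The receptors had smaller differences. Rara, the receptor alpha, measured 7.63, 7.55, 7.42 and 7.34 in GW9662 mice and 7.56, 7.47, 7.49 and 7.51 in vehicle mice. It was higher in pairs 1 and 2 and lower in pairs 3 and 4, and the vehicle mice lay within the range of the GW9662 mice. Its log2 fold change was -0.02 ± 0.07 (SE), with an interval from -0.18 to 0.14.

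Rarg, the receptor gamma, which prevails in epidermis, had a pair of probe sets that gave values below 0 alike. The brighter one measured 7.5, 7.72, 7.52 and 7.67 in GW9662 mice and 7.63, 7.71, 7.61 and 7.82 in vehicle mice, a log2 fold change of -0.09 ± 0.08 (SE; -0.05 without vehicle 4) with an interval from -0.26 to 0.08. The other measured 7.37, 7.36, 7.15 and 7.01 in GW9662 mice and 7.48, 7.5, 7.28 and 7.05 in vehicle mice, a log2 fold change of -0.11 ± 0.12 (SE). The second set was lower in 4 of 4 pairs and the first in 3 of 4, where 5.93% of all genes were lower in all pairs. Within each group the sets ranked the mice differently: GW9662 4 was the lowest of its group on the second set and second highest on the first. Limma gave both an adjusted p of 0.997.

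**Figure D3:**
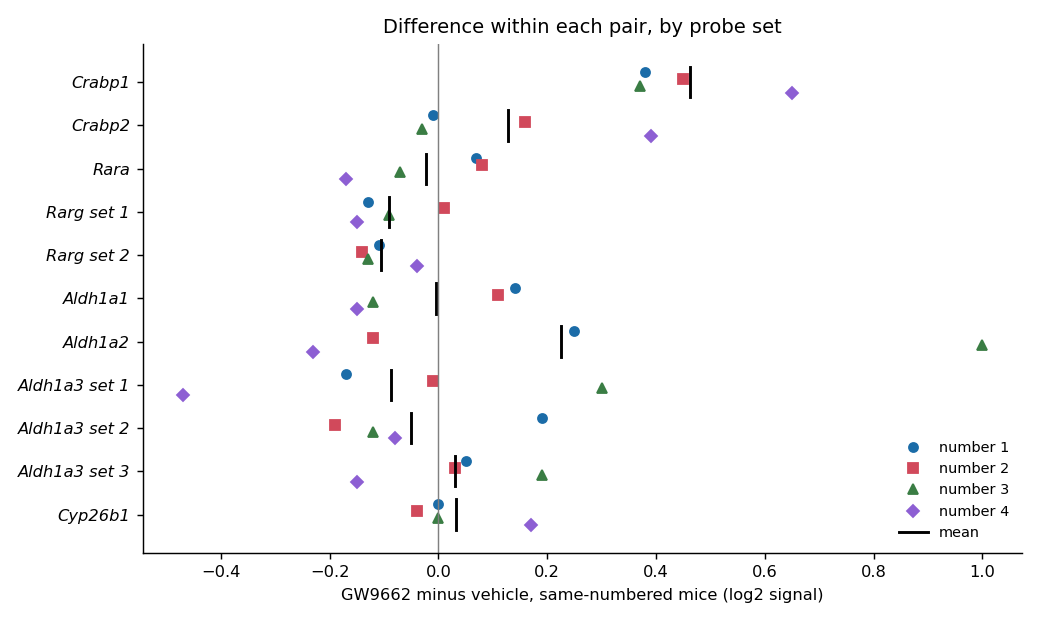
GW9662 minus vehicle in log2 signal (horizontal axis) within each of 4 same-numbered pairs, for the 11 probe sets (rows); black lines are means. The 4 Crabp1 points lie between 0.37 and 0.65, the 2 Rarg sets lie mostly below 0, and the Aldh1a2 points run from -0.23 to 1.00.

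Retinaldehyde dehydrogenases make retinoic acid from retinal. Aldh1a1, a member of this family, measured 8.20, 8.40, 8.16 and 8.16 in GW9662 mice against 8.06, 8.29, 8.28 and 8.31 in vehicle mice. Its groups overlapped over most of their range, and the log2 fold change was -0.005 ± 0.08 (SE; 0.02 without vehicle 4), with an interval from -0.19 to 0.18. The gene has a close copy, Aldh1a7, in the mouse, and the signal of the copies may not be separable on the array.

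Aldh1a2, the enzyme that supplies retinoic acid in much of the embryo, varied more among the GW9662 than among the vehicle mice. It measured 4.62, 4.25, 5.12 and 4.15 in GW9662 mice and 4.37, 4.37, 4.12 and 4.38 in vehicle mice. The GW9662 mean was lifted by mouse 3, which was 1.00 above its partner, while pairs 2 and 4 had differences of -0.12 and -0.23. The log2 fold change was 0.23 ± 0.18 (SE), with an interval from -0.18 to 0.63, and it was -0.03 without both mice numbered 3.

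Aldh1a3, the third retinaldehyde dehydrogenase, had 3 probe sets. The brightest measured 4.44, 4.75, 4.85 and 4.40 in GW9662 mice and 4.61, 4.76, 4.55 and 4.87 in vehicle mice, with a log2 fold change of -0.09 ± 0.11 (SE; -0.03 without vehicle 4, and -0.22 to 0.04 with single mice or numbered pairs left out). The other sets gave -0.05 and 0.03, so the sets did not share a sign. The deposited values hold no detection calls, so whether the Aldh1a2 and Aldh1a3 sets were above background is unknown. Limma's adjusted p was 0.997 for all 3 Aldh1a genes.

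Cyp26b1, the cytochrome P450 that clears retinoic acid, was among the brightest probe sets of the array, at the 99.5th percentile of brightness. It measured 10.88, 11.11, 11.15 and 11.25 in GW9662 mice and 10.88, 11.15, 11.15 and 11.08 in vehicle mice. Same-numbered mice had nearly equal values: the pair differences were 0.00, -0.04, 0.00 and 0.17, and mouse 1 was the lowest of both groups. The log2 fold change was 0.03 ± 0.09 (SE), with an interval from -0.17 to 0.24 and an adjusted p of 0.997 in limma.

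The genes of the list had correlations of either sign with each other, and whether they vary together was not tested. Over the 8 mice, deviations from the group means gave 28 correlations between them, all on shared arrays and given as a description: the highest was 0.59, between Rarg and Aldh1a1, and the lowest -0.86, between Rara and Cyp26b1. Those of Crabp1 with the other genes of the list ran from -0.57, with Rarg, to 0.39, with Crabp2. Only the brightest probe set of each gene entered, and the values for Rarg depend on that choice. The other Rarg set was lowest of its group in GW9662 4, at 7.01, and in vehicle 4, at 7.05, as was Crabp1. On the brighter Rarg set vehicle 4 was the highest of its group, at 7.82.

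The other genes of the pathway were described from lists, with 40 of 49 distinct genes measured. Of these, 15 were higher, 24 lower and 1 equal after GW9662, with a median log2 fold change of -0.03 against -0.005 over all genes. In limma 0 passed over all genes, and 2 of the 40 had an unadjusted p under 0.05, against 3.38% of all genes. The adjusted p was 0.997 in limma for each gene named in the next paragraphs. Rdh14, Rbp4, Lrat, Stra6l, Rxrg, Fabp5, Cyp26a1 and Rarres1 had group means below 5.27, the median of all genes. Whether these lay above background is unknown.

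Among 14 measured enzymes that convert retinol and retinal, 8 were higher and 6 lower (median 0.03). Rdh10, which oxidises retinol to retinal, measured 6.45, 6.40, 6.52 and 6.37 in GW9662 mice and 6.29, 6.29, 6.32 and 5.84 in vehicle mice. All 4 GW9662 mice lay above all vehicle mice, as in 1 of the 40 genes and in 0.708% of all genes. The log2 fold change was 0.25 ± 0.11 (SE), and 0.14 without vehicle 4.

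Dhrs3, which turns retinal back into retinol and is itself induced by retinoic acid, measured 7.08, 7.04, 7.06 and 7.01 in GW9662 mice and 7.02, 6.76, 6.76 and 6.94 in vehicle mice. It was higher in 4 of 4 pairs, as were 2 of the 40 genes and 5.46% of all genes. The groups overlapped only through GW9662 4 and vehicle 1. The log2 fold change was 0.18 ± 0.07 (SE), and 0.20 without vehicle 4. Rdh14, another retinol dehydrogenase, was at 0.13 ± 0.07, at 0.06 when its probe sets were averaged and at 0.07 without both mice numbered 4.

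**Figure D4:**
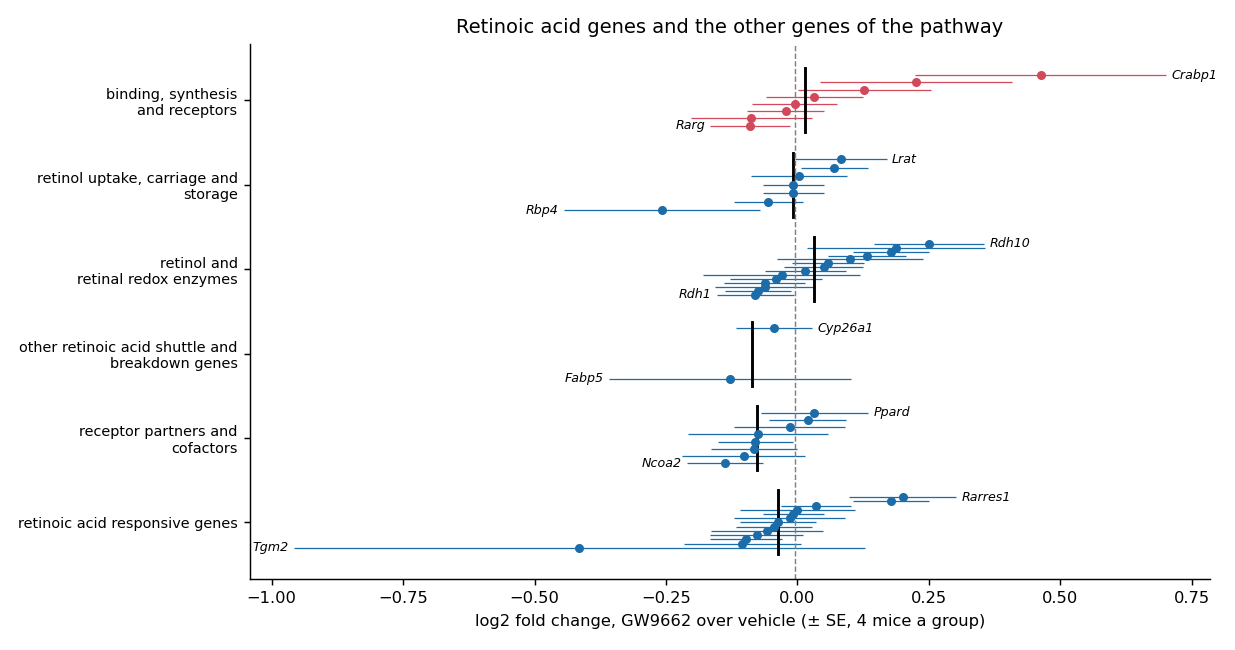
Log2 fold change of GW9662 over vehicle ± SE (horizontal axis, 4 mice a group) for the 8 genes of retinoic acid binding, synthesis and receptors (red) and for 5 lists of other pathway genes (blue). Black lines are list medians, and the dashed line is the median of all genes, -0.005; Crabp1 lies at 0.46, and every other red point lies between -0.09 and 0.23.

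Genes of retinol uptake, carriage and storage had 3 of 7 measured members higher and 4 lower (median -0.0075). Rbp4, the retinol carrier of plasma, measured 4.83, 4.95, 5.19 and 4.82 in GW9662 mice and 5.52, 4.76, 5.63 and 4.91 in vehicle mice, where mice 1 and 3 were high. Its log2 fold change was -0.26 ± 0.19 (SE), and ran from -0.41 to -0.11 with mice left out. Lrat, which makes retinyl esters, was at 0.08 ± 0.09 (-0.0025 without GW9662 3), and Stra6l, a receptor for the retinol carrier, at 0.07 ± 0.06 (0.03 to 0.10 with mice left out).

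Receptor partners and cofactors had 2 of 8 measured members higher and 6 lower (median -0.08). Ncoa2, a coactivator of nuclear receptors, was at -0.14 ± 0.07 (SE; -0.06 when its probe sets were averaged), Ncoa1, a related coactivator, at -0.08 ± 0.07 (-0.05 without vehicle 4, -0.03 without both mice numbered 2) and Rxrg, a retinoid X receptor, at -0.08 ± 0.08 (-0.01 without vehicle 3). Of the remaining shuttle and breakdown genes, Fabp5, a fatty acid binding protein that also carries retinoic acid, was at -0.13 ± 0.23 (0.11 without vehicle 1) and Cyp26a1, a close relative of Cyp26b1, at -0.05 ± 0.07 (-0.02 without vehicle 4).

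Genes known to respond to retinoic acid had 3 of 13 measured members higher, 9 lower and 1 equal (median -0.04). Besides Dhrs3, Rarres1, named for its induction by retinoids, was at 0.20 ± 0.10 (SE; 0.14 without vehicle 4), and Rarres2, which encodes chemerin, at -0.10 ± 0.07 (-0.06 without vehicle 4, -0.05 when its probe sets were averaged). Rarres2 measured 11.59, 11.56, 11.51 and 11.71 in GW9662 mice and 11.69, 11.68, 11.59 and 11.80 in vehicle mice, lower in 4 of 4 pairs with overlapping groups. Such a count was found in 1 of the 40 pathway genes and in 5.93% of all genes. Tgm2, tissue transglutaminase, chosen here after its values were seen, spread the most, with 7.19, 8.90, 8.73 and 7.76 in GW9662 mice against 7.09, 8.95, 9.83 and 8.37 in vehicle mice, and a log2 fold change of -0.42 ± 0.54 (SE). The Tgm2 pair differences were 0.10, -0.05, -1.10 and -0.61, so its mean difference came from numbers 3 and 4. Only the brighter of its 2 probe sets is described, and its values with mice left out are not given. The responsive genes thus held values of either sign, and 0 of them passed the test. Stra6, Cyp26a1, Hoxb1, Cdx1, Stra8 and Rarres1 among them were dim, with group means below 5.27, the median of all genes.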

How the data were processed

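The deposited values are log2 signals to 2 decimals for 45141 probe sets in 8 samples. Per the submitters' processing notes the authors used RMA and the affy package, with versions not given in the sources used here; RMA corrects background, equalises the arrays and summarises probes. The base of the logarithm was inferred from their range. Per the labels' protocols RNA of 5000 cells was amplified over 21 cycles, which can alter relative signals. Gene names came from the platform annotation and RefSeq: 28898 had 1 gene, 551 several and 15692 were unnamed here. The brightest probe set stood for each of 17097 genes.

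GW9662 minus vehicle was fitted with limma 3.58.1 in R 4.3.3 (no covariate, two-sided, Benjamini-Hochberg over all genes, threshold 0.05); every probe set was also fitted. The fit was checked on simulated data for the recovery of known log2 fold changes. That simulation held no pairs and no array set apart, so it says nothing on the calls made here. The number of arrays limits the precision. Each sample is 1 animal, per the design text. Per the design text, mice were killed in couples, 1 per group and day; deviations from group means correlated at 0.203, 0.163, 0.114 and 0.165 between same-numbered samples, across genes, so numbers were read as pairs. No samples shared over 3.01% of values, so all were counted.

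The members, lists and tests were chosen with earlier results of these data known. Named genes are all members, the 3 of smallest unadjusted p per list, and the 5 genes most correlated with Crabp1 among those brighter than the median gene. Alternatives were the block, variance models, filters, scalings, array weights and samples left out.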

Additional observations from a re-analysis of the deposited data

Results flagged for a closer look

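In 10 of 58 groups of 4 mice, 1 mouse lay far from the other 3 relative to the range of its group, where chance gives about 1 in 20 for independent groups. The groups here share the same 8 arrays and include genes chosen on these data, so the count cannot be compared with that rate. Among the listed genes, Aldh1a1 was highest in GW9662 2 at 8.40 and lowest in vehicle 1 at 8.06, and Aldh1a2 was lowest in vehicle 3 at 4.12, where the other vehicle mice lay within 0.01 of each other. Of the pathway genes, Rdh10 was lowest in vehicle 4 at 5.84 and Rdh14 lowest in GW9662 1 at 4.22. Of the genes chosen for their likeness to Crabp1, Calu was lowest in vehicle 4 at 9.73, Cep170b in GW9662 4 at 8.34 and in vehicle 4 at 8.0, Mtch2 in GW9662 4 at 7.41 and Ostf1 in GW9662 4 at 8.03. Those genes were chosen for sharing the profile of Crabp1, which is low in the same mice.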

How the results depend on the processing

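The log2 fold change of Crabp1 kept its sign in all 24 alternatives, with values from 0.22 to 0.64 when mice were left out and 0.41 with array weights. Crabp1 was chosen as higher in all 4 pairs, so leaving out both mice of a number could not turn its sign. The block and the variance models leave its value as it is by construction. The kept sign is therefore a description and no support. Crabp2 (0.04 to 0.25) and Rarg (-0.13 to -0.05) kept their signs as well. Others crossed 0 when mice were left out: Rara ran from -0.071 to 0.027, Aldh1a1 from -0.063 to 0.043 (and 0.016 with array weights), Aldh1a2 from -0.033 to 0.38, Aldh1a3 from -0.22 to 0.04, Cyp26b1 from -0.029 to 0.11, Fabp5 from -0.25 to 0.11, Lrat from -0.0025 to 0.13 and Cyp26a1 from -0.093 to 0.0067. With the replicate block and both mice of a number left out, Rara was at 0.027, Aldh1a1 at 0.043, Aldh1a3 at 0.04 and Cyp26b1 at -0.013 without number 4; Aldh1a1 was at 0.033, Aldh1a2 at -0.033 and Cyp26a1 at 0.0067 without number 3, and Fabp5 at 0.027 without number 1. Limma's adjusted p of the 7 tested genes of the list was 0.842 to 1 over 25 settings. The count of genes past the threshold was 0 to 1 with mice left out, the 1 being Col14a1 (adjusted p = 0.0396), with the block and without number 4; with the block on all 8 mice it was 0. The count at an unadjusted p under 0.05, 578 in the main test, was 367 to 985 with mice left out (367 without GW9662 1, 381 without GW9662 3, 888 without GW9662 4, 376 without number 1 and 868 without number 4). With the block it was 825 on all 8 mice, 956 without number 2 and 985 without number 4. It was 256 among brighter genes alone and 1024 over every probe set, which follows from the number of features tested. The block moved no other call. Without detection calls no probe set can be placed against background.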
